A study of Mus musculus with 2 samples.

Results

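The 10 genes of the intestinal mucus and of the goblet cells that make it described here are Muc2, Fcgbp, Clca1, Tff3, Zg16, Spink4, Agr2, Ern2, Spdef and Atoh1. They were chosen by name as goblet products and secretory factors, not by their values, and all 10 are among the 31053 genes of the count files. There was 1 library per genotype, Tg from 1 mouse of genotype Mdm2+/- Cag-CreERTg and FMTg from 1 mouse of genotype Mdm2FM/- Cag-CreERTg. Both were C57BL/6j, aged 60 days, and fresh small intestine was dissociated to single cells 24 hours after 1 injection of 6 mg tamoxifen per 40 g of body weight. Both mice carried the tamoxifen-activated CreER recombinase, driven by the broadly active CAG promoter, both were given tamoxifen, and both carried a null (-) allele of Mdm2. The labels name acute p53 activation through Mdm2 loss as the state of FMTg and retained Mdm2 as that of Tg. Mdm2 encodes the ubiquitin ligase that restrains p53. Transcripts were counted at their 3' ends as unique molecular identifiers (UMIs) with the 10x Genomics single-cell method. Each group has 1 library, so no test could be made, no difference has a replicate check, and every interval given is at 95% and covers counting error only.

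Goblet cells are the mucus-secreting cells of crypt and villus. Muc2 is the gel-forming mucin of intestinal mucus, Fcgbp a large secreted protein bound into the same gel, and Clca1 a secreted protease that processes mucin. Tff3 is a small trefoil peptide, Zg16 a lectin that binds bacterial cell walls, and Spink4 a secreted protein of the Kazal inhibitor family. Agr2 is a protein disulfide isomerase needed for mucin folding, and Ern2 encodes the stress sensor IRE1-beta of mucin-making epithelium. Atoh1 is the basic helix-loop-helix factor that, released from Notch repression, sets the secretory lineage, and the ETS factor Spdef acts after it in goblet maturation.

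The promoters of Muc2 and Fcgbp are shown because the levels of these genes went together from cell to cell, and that of Agr2 because it differed most between the libraries among the abundant members. Each is the 250 bases before the RefSeq start on the plus strand (RefSeq, GRCm38.p6). Capitals mark the hexamer CAGCTG, an E-box of the kind read by basic helix-loop-helix factors such as Atoh1. It is its own reverse complement, so 1 search covers both strands, and no other motif was searched.
Muc2, chr7:141690090-141690339: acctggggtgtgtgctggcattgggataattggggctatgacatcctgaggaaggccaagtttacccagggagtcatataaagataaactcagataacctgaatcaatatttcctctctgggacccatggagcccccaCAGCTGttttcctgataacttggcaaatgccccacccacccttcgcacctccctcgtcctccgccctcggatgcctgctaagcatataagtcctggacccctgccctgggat
Fcgbp, chr7:28070986-28071235: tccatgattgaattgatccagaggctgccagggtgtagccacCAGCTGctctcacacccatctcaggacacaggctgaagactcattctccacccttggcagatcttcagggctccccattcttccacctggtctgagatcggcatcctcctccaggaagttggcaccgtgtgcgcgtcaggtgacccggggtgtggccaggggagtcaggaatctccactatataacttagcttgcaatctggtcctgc
Agr2, chr12:35992675-35992924: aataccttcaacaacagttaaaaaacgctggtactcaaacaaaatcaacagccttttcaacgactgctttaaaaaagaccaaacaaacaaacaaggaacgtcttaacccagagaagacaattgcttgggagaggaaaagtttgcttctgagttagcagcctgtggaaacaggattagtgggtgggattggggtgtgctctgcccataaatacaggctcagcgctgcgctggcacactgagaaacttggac
The hexamer begins 112 bases before the Muc2 start and 208 bases before the Fcgbp start, and these letters do not occur in the Agr2 window. Of the 5 members with a RefSeq promoter in the table used (Muc2, Fcgbp, Agr2, Spdef and Atoh1), 2 hold it, against 13.0% of 32851 promoter windows of the same length. A match is a description of letters, not a binding site.

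The Tff3 sequence is shown because in enterocyte-like cells this gene went against the other measured members. Its gene lies at chr17:31125306-31129646 on the minus strand of mm10 (GENCODE vM21). Its coding sequence has 246 bases, and the 7 cysteine codons are in capitals. Most of these cysteines form the disulfide bonds of the trefoil fold.
Tff3: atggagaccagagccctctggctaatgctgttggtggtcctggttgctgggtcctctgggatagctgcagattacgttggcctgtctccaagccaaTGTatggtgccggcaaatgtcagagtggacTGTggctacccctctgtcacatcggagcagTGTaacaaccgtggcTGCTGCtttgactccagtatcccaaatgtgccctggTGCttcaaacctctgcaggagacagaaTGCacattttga
The other members lie on mm10 as follows. Muc2 is at chr7:141690340-141754693, Fcgbp at chr7:28071236-28120862 and Agr2 at chr12:35992907-36004087, all on the plus strand. Clca1 is at chr3:145003817-145032776 on the minus strand and Spink4 at chr4:40920052-40931395 on the plus strand. Ern2 is at chr7:122169893-122186207 and Spdef at chr17:27714352-27728955 on the minus strand, and Atoh1 at chr6:64729125-64731245 on the plus strand. Zg16, at chr7:127050156-127087328 on the minus strand, overlaps 2 annotated genes of the opposite strand, Gm44939 and Gm22747. The count files also list 9530053A07Rik, an Fcgbp-like neighbour whose reads may be hard to part from those of Fcgbp.

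The Tg library held 6270 barcodes and 54013005 UMIs and the FMTg library 6382 barcodes and 49805718 UMIs, with 14 barcode sequences in both. After filters 2913 Tg and 2675 FMTg cells were kept and grouped into 24 clusters without the members, so that the classes rest on other marker genes. The limit of 25% mitochondrial UMIs removed 2946 Tg and 3353 FMTg barcodes. The Mdm2 count does not check the genotype, because the sources used here do not give the deleted part of the gene. In goblet-like cells Mdm2 stood at 57.6 CPM in Tg, in UMIs scaled to the class total, and 88.1 CPM in FMTg.

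The goblet-like class was 1 cluster of 118 Tg and 42 FMTg cells. Its 10 leading genes hold 3 goblet markers and 2 Paneth markers, Defa24 and Itln1. The 13 goblet markers outside the member list, all detected in both libraries, summed to 3386 CPM in Tg and 2172 CPM in FMTg, against 75.7 CPM and 37.0 CPM in enterocyte-like cells. The Paneth markers summed to more, 5607 CPM and 5555 CPM. Of these UMIs Defa24 held 6692 of 11969 in Tg and 3625 of 4289 in FMTg. The close sums thus do not mean that the single Paneth genes were alike. No cluster was named for Paneth cells, so the class carries RNA of both lists. It made up 4.05% of Tg cells (exact binomial interval 3.36 to 4.83) and 1.57% of FMTg cells (1.13 to 2.12). The difference, FMTg minus Tg, was -2.48 percentage points (-3.38 to -1.60), and -1.13 points with a 10% mitochondrial limit in place of 25%. Among the named epithelial cells, 598 in Tg and 601 in FMTg, the share was 19.7% in Tg and 6.99% in FMTg. These totals leave out an unnamed cluster of 122 Tg and 15 FMTg cells with enterocyte as best type, which raises the Tg share more. A mitochondrial limit can set such shares. By a per-cell marker gate with no such limit, 144 of 6013 Tg barcodes (2.39%) and 54 of 6172 FMTg barcodes (0.875%) were goblet cells. The limit removed 18.8% and 20.4% of these, against 77.7% and 81.8% of the barcodes gated as enterocytes. Both ways the goblet-like share was lower in the FMTg library.

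Within the goblet-like cells the mucus program was present in both libraries at close levels. The 10 members made up 45.8% of all UMIs of the class in Tg and 42.0% in FMTg. Cell by cell, their share ran from 11.9% to 65.6% with a median of 44.0% in Tg, and from 10.4% to 66.1% with a median of 41.4% in FMTg, so the cells of the libraries overlapped almost fully. On the log2 scale the summed members differed by -0.13 (-0.13 to -0.12), FMTg over Tg. None of the 10 members was at least 1.5-fold higher in FMTg, where 14.0% of 6372 genes with at least 20 UMIs were. The 2 members Agr2 and Ern2, were at least 1.5-fold lower, where 20.2% of genes were, so the members' count is no higher than the background. The members' median log2 ratio was -0.21 and that of all measured genes -0.06.

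**Figure D1:**
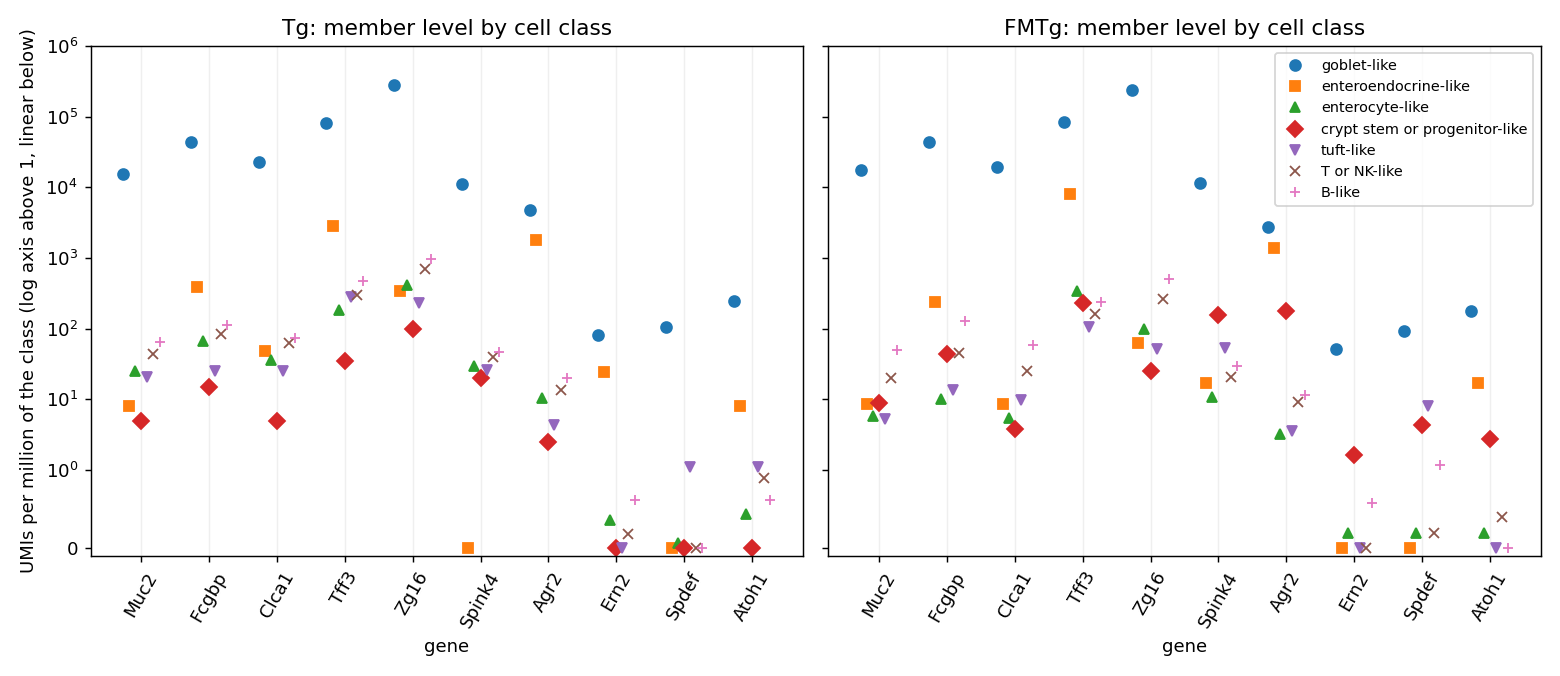
Level of each of the 10 genes in UMIs scaled to the class total as CPM (vertical axis, logarithmic above 1 and linear below) in 7 cell classes, Tg on the left and FMTg on the right, 1 library each. Every member was highest in the goblet-like class in both libraries, and Tff3, Agr2 and Fcgbp were next highest in the enteroendocrine-like class.

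Of the secreted products, Muc2 had 15212 CPM in Tg goblet-like cells (exact Poisson interval 15047 to 15379) and 17626 CPM in FMTg (17331 to 17924), and the log2 ratio was 0.21 (0.18 to 0.24). The median cell held 298.5 Muc2 UMIs in Tg, in a range of 0 to 848, and 330.5 in FMTg, in a range of 3 to 973. The mucin was thus slightly higher in the FMTg library, by less than 1.5-fold. Fcgbp stood at 43188 CPM and 44111 CPM, a log2 ratio of 0.03 (0.01 to 0.05). Its paralog 9530053A07Rik had a log2 ratio of 0.23 (0.01 to 0.44). Clca1 was lower in FMTg, at 19484 CPM against 22929 CPM, with a log2 ratio of -0.23 (-0.26 to -0.21). The direction of Fcgbp depended on the setting, and 10 of 13 alternatives kept its sign.

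Zg16, the lectin, stood at 280766 CPM in Tg and 240556 CPM in FMTg, a log2 ratio of -0.22 (-0.23 to -0.22), with a median of 3790 UMIs per cell in Tg and 3429 in FMTg. Tff3 was close in both, at 79917 CPM and 83795 CPM, a log2 ratio of 0.07 (0.06 to 0.08). Every goblet-like cell of either library held Tff3 and Zg16, from 6 to 3590 Tff3 UMIs in Tg and from 44 to 3054 in FMTg. Spink4 stood at 11217 CPM and 11387 CPM, a log2 ratio of 0.02 (-0.01 to 0.06). The pooled Spink4 value leans on 1 FMTg cell that held 24.0% of the UMIs, 2107 in all. The median cell was lower in FMTg, at 4829 CPM against 7013 CPM.

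The folding enzyme Agr2 had the lowest ratio of the 10. It stood at 4715 CPM in Tg (4623 to 4808) and 2699 CPM in FMTg (2585 to 2818), and the log2 ratio was -0.80 (-0.87 to -0.74). The median cell held 61.5 Agr2 UMIs in Tg, in a range of 0 to 542, and 26.5 in FMTg, in a range of 1 to 350. The middle of the FMTg cells thus sat lower, with broad overlap. With a 50% mitochondrial limit the Agr2 difference was gone (0.0012), and with no limit it was -0.21. The sensor Ern2 had 175 UMIs in Tg and 40 in FMTg, or 82.0 CPM and 51.8 CPM, a log2 ratio of -0.66 (-1.20 to -0.16). At least 1 Ern2 UMI was present in 67.8% of the Tg and 50% of the FMTg goblet-like cells, and after thinning each cell to 2000 UMIs in 18.3% of 104 Tg cells (11.4 to 27.1) and 7.32% of 41 FMTg cells (1.54 to 19.9). A 50% mitochondrial limit turned the Ern2 ratio to 0.11.

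Of the transcription factors, Atoh1 had 526 UMIs in Tg and 137 in FMTg, or 246 CPM and 177 CPM, a log2 ratio of -0.47 (-0.76 to -0.20). Spdef had 224 and 71 UMIs, or 105 CPM and 92.0 CPM, a log2 ratio of -0.19 (-0.60 to 0.20). Neither reached 1.5-fold. Thinned to 2000 UMIs, 39.4% of Tg and 39.0% of FMTg goblet-like cells had an Atoh1 UMI, and 18.3% and 17.1% a Spdef UMI, so these shares differed by less than their counting error. Before thinning, 83.1% and 88.1% had an Atoh1 UMI and 71.2% and 71.4% a Spdef UMI, at median depths of 18991 and 19160.5 UMIs per cell. Among T or NK-like cells, which should lack both genes, the thinned shares were 0.475% and 0.0991% for Atoh1, and for Spdef 0 of 1053 Tg and 0 of 1009 FMTg cells, with exact upper limits of 0.350% and 0.365%.

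**Figure D2:**
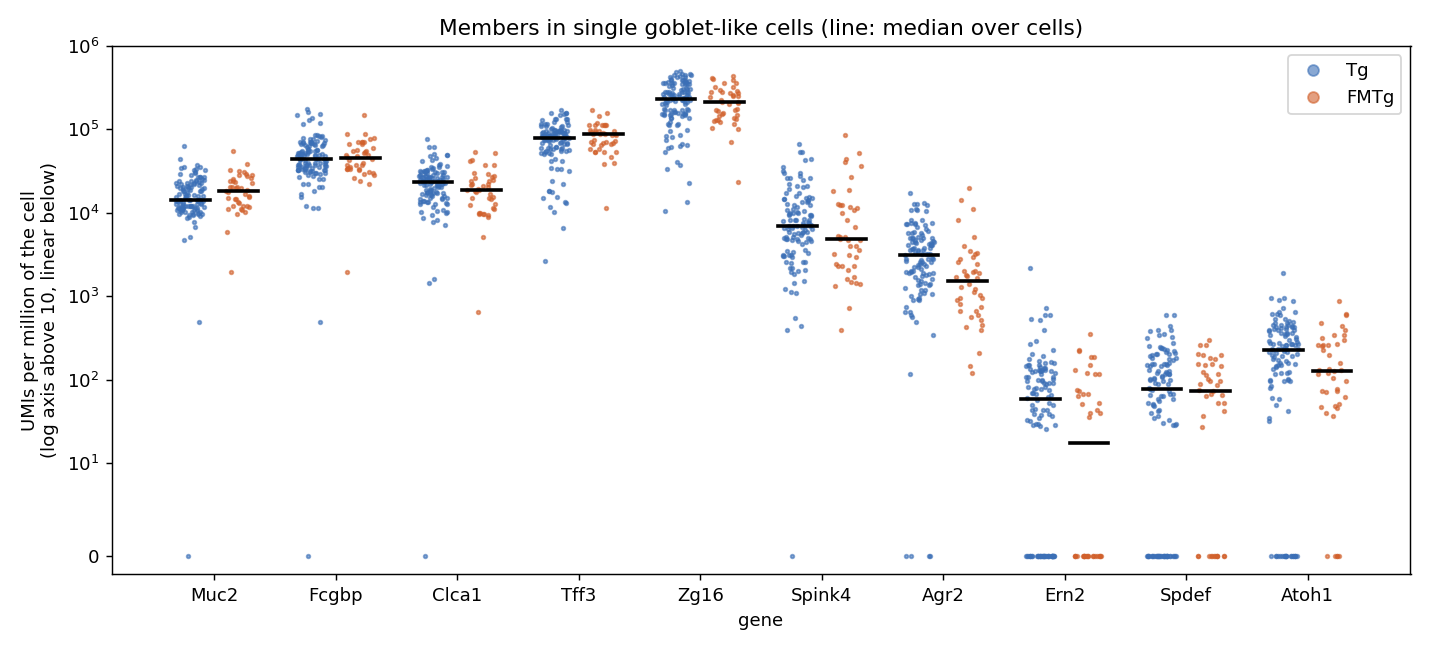
Level of each member in every goblet-like cell, in CPM of the cell (vertical axis, logarithmic above 10 and linear below), 118 Tg and 42 FMTg cells, with the median over cells as a line. The libraries overlap for all 10 genes, and the Agr2 median is lower in FMTg, at 1509 against 3148.

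The members did not vary together from cell to cell as 1 block. On log2(CPM + 100) over 118 Tg and 42 FMTg goblet-like cells, Muc2 and Fcgbp had Pearson correlations of 0.87 in Tg and 0.84 in FMTg. Fcgbp and Clca1 had 0.82 and 0.80, and Muc2 and Clca1 0.79 and 0.64. Muc2 and Tff3 had only 0.05 and 0.15. Spink4 and Agr2 had 0.40 and 0.67, and Zg16 and Agr2 0.56 in Tg but 0.07 in FMTg. Cells of 1 library share depth and free RNA, and these values are descriptions only. Agr2 and Ern2 had 0.08 and 0.60. By Spearman's rho the values for Muc2, Fcgbp and Clca1 were lower, with Muc2 and Fcgbp at 0.65 and 0.73, Fcgbp and Clca1 at 0.56 and 0.61, and Muc2 and Clca1 at 0.55 and 0.38. The rho of Spink4 and Agr2 was 0.41 in Tg and 0.60 in FMTg. That of Agr2 and Ern2 was 0.18 and 0.60, and that of Fcgbp and Ern2 0.19 and 0.58. Ern2 had only 40 UMIs in the 42 FMTg cells and was seen in 21 of them, which limits its pairs. Of the pairs computed, which leave out Spdef and Atoh1, Muc2 and Fcgbp were the closest in both libraries by either measure.

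Other genes of the secretory route in the same goblet-like cells came from lists chosen by function. In the list for protein folding and export, 39 genes were measured, 1 was at least 1.5-fold higher and 17 were lower in FMTg, with a median log2 ratio of -0.50. Of all 6372 measured genes 14.0% were higher and 20.2% lower, with a median of -0.06, which is also the background of the counts for the lists that follow. The chaperone Hspa5 (BiP) had a log2 ratio of -0.77 (-1.02 to -0.53), the translocon subunit Sec61b -1.05 (-1.43 to -0.68) and the disulfide isomerase Pdia4 -1.85 (-3.36 to -0.65). The sulfhydryl oxidase Qsox1 was close, at 0.10 (-0.10 to 0.29). Agr2 and Ern2, the members with endoplasmic reticulum roles, were lower in the same cells. The goblet markers used for naming were also lower in FMTg, by the values given above, and the enterocyte markers were higher, at 11038 CPM and 23577 CPM with all 14 detected in both. The part of the enterocyte RNA in these values was not tested.

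Of the genes for mucin O-glycosylation, 26 were measured, with 4 higher, 4 lower and a median log2 ratio of -0.25, so both counts are near the background. Gcnt3, which makes core branches, was at -0.11 (-0.29 to 0.07), Galnt7, an initiating transferase, at -0.80 (-1.12 to -0.49), the galactosyltransferase B4galt1 at 1.39 (0.95 to 1.83) and the sialyltransferase St3gal6 at -1.34 (-2.06 to -0.69). Among other mucins, paralogs of the members and goblet products, 9 were measured, 4 higher and 1 lower. The membrane mucin Muc13 was at 0.31 (0.23 to 0.38), Clca4a at 3.06 (2.77 to 3.37) and the antimicrobial ribonuclease Ang4 at -2.53 (-2.70 to -2.36). Clca4a was also the first leading gene of an enterocyte-like cluster of 26 Tg and 230 FMTg cells. In enterocyte-like cells 11 genes of this list of other mucins, paralogs and goblet products were measured, 8 higher and 1 lower. Of all 10485 genes measured there, 16.1% were higher and 11.3% lower. The part of enterocyte RNA in the goblet-like values of this list, Clca4a among them, was not tested. Ang4 is also made by Paneth cells. The genes of the Paneth marker list went both ways in goblet-like cells. Defa24 was at 0.58 and Mmp7 at 2.93, but Itln1 at -1.72, Lyz1 at -3.49 and Defa30, on 802 and 1 UMIs, at -8.18.

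For granule release and ion transport 16 genes were measured, 2 higher and 6 lower, with a median log2 ratio of -0.05. The exocytosis genes Sytl2, at -0.002 (-0.20 to 0.19), and Vamp8, at 0.14 (-0.10 to 0.38), were close. The granule GTPase Rab3d was at -0.998 (-1.67 to -0.38) and the sodium-proton exchanger Slc9a3 at 1.12 (0.46 to 1.77). Of the secretory fate factors other than members, 12 were measured, 1 higher and 3 lower, the latter near the background. Klf4, a goblet maturation factor, was at 0.09 (-0.05 to 0.23), Id1 at -0.37, Foxa2, on 84 and 8 UMIs, at -1.92 (-3.18 to -0.88) and Id2 at -1.36. In the Notch list 9 were measured, 0 higher and 2 lower, the lower count again near the background, with Psenen at -0.12, Adam10 at 0.44 and the ligand gene Dll4 at -0.48 (-1.27 to 0.25).

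B-like and T or NK-like cells, which should not make the members, were read as the background. How member RNA came to be counted in them was not tested. In 1100 Tg and 1047 FMTg T or NK-like cells the summed members stood at 1228 CPM and 541 CPM, a log2 ratio of -1.18 (-1.25 to -1.12). In B-like cells they stood at 1745 CPM and 1022 CPM, a log2 ratio of -0.77 (-0.86 to -0.68), of which 1 FMTg cell held 263 of the 878 Zg16 UMIs and 109 of the 219 Fcgbp UMIs were in 1 cell. The FMTg library thus had less summed member RNA in both lymphocyte classes, although Fcgbp in B-like cells was at 0.19 (-0.10 to 0.48). Over all cells together the summed members were lower at -1.30 (-1.31 to -1.30), and each member was at least 1.5-fold lower, from -0.995 for Muc2 to -1.74 for Ern2, where 9.75% of 14110 genes were. At a 10% mitochondrial limit Muc2, at -0.44, and Spink4, at -0.21, no longer reached 1.5-fold. The summed value was -0.75 at that limit and -2.68 at 50%. This all-cell value holds the lower goblet-like share, so it is no measure of a change per cell.

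**Figure D3:**
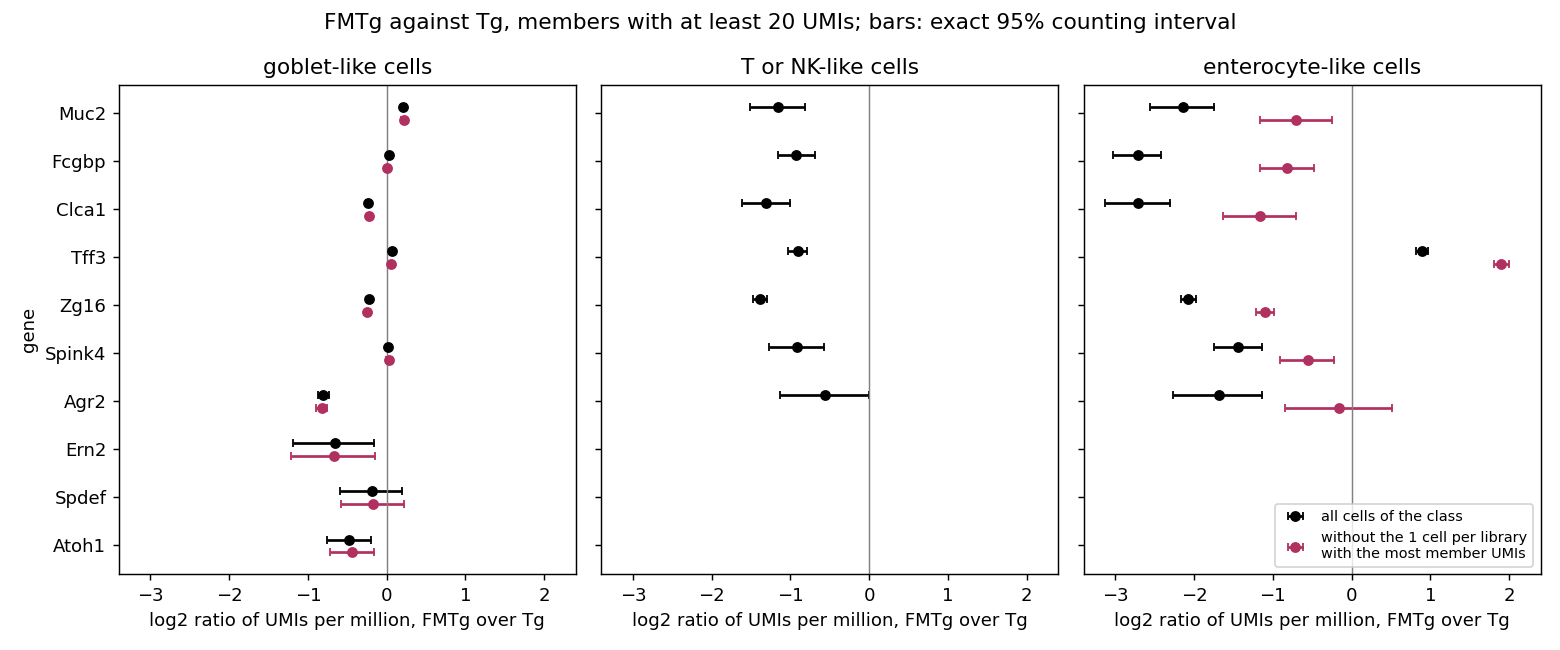
Log2 ratio of CPM, FMTg over Tg (horizontal axis), for members with at least 20 UMIs in goblet-like, T or NK-like and enterocyte-like cells, with exact counting intervals as bars. A second set of points, for goblet-like and enterocyte-like cells, leaves out the cell with the most member UMIs in each library. In goblet-like cells the ratios lie between -0.80 and 0.21 with all cells, and between -0.82 and 0.22 in the second set. In T or NK-like cells all lie below 0, and in enterocyte-like cells Tff3 alone lies above 0 in both sets.

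The absorptive, enterocyte-like cells numbered 405 in Tg and 444 in FMTg, with median depths of 30614 and 19958 UMIs. Different clusters held most of it: cluster 3 had 169 Tg and 117 FMTg cells, cluster 7 128 and 71, cluster 14 82 and 26, and cluster 4 26 and 230. Cluster 10, of 122 Tg and 15 FMTg cells, had all 14 enterocyte markers detected but stayed unnamed. It was shallow, at a median of 1284 UMIs, with no enterocyte marker among its leading genes. The enterocyte-like values leave it out, and its effect on them was not tested. In this class Tff3 went against the other members. It had 2506 UMIs in Tg and 3555 in FMTg, or 183 CPM (176 to 191) and 340 CPM (329 to 352), a log2 ratio of 0.89 (0.82 to 0.97). The other 6 measured members were at least 1.5-fold lower, from -1.44 for Spink4 to -2.72 for Fcgbp. In the same class 16.1% of 10485 genes were at least 1.5-fold higher and 11.3% lower. A single Tg cell of cluster 14, of 88190 UMIs, held 6223 of the 10518 member UMIs of the Tg class, among them 1289 Tff3 and 3429 Zg16 UMIs.

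Without the cell with the most member UMIs in each library, Tff3 stood at 89.6 CPM in Tg and 335 CPM in FMTg, a log2 ratio of 1.90 (1.81 to 1.999). The other members then had log2 ratios of -0.70 for Muc2, -0.82 for Fcgbp, -1.16 for Clca1, -1.10 for Zg16, -0.56 for Spink4 and -0.16 for Agr2. In T or NK-like cells each was lower, at -1.16 for Muc2, -0.93 for Fcgbp, -1.31 for Clca1, -1.39 for Zg16, -0.92 for Spink4 and -0.56 for Agr2. In B-like cells they were -0.38 for Muc2, 0.19 for Fcgbp, -0.32 for Clca1, -0.93 for Zg16, -0.67 for Spink4 and -0.79 for Agr2. Tff3 was at -0.91 in T or NK-like cells and at -0.96 in B-like cells. Tff3 was thus lower in FMTg in both lymphocyte classes and higher in FMTg in enterocyte-like cells, and the part of the background in the latter was not tested. The Tff3 ratio turned to -4.71 at a 10% mitochondrial limit, which left 11 FMTg Tff3 UMIs, and to -0.19 with doublets kept.

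The higher Tff3 sat in a subset of cells. At least 10 Tff3 UMIs were found in 22 of 405 Tg cells (5.43%, 3.44 to 8.11) and 80 of 444 FMTg cells (18.0%, 14.6 to 21.9), although the Tg cells were deeper. For Zg16 the order was the reverse, with 46 Tg cells (11.4%) and 11 FMTg cells (2.48%) at 10 UMIs or more. In T or NK-like cells, whose median depths were 4924 and 4607, 2 Tg and 1 FMTg cells reached 10 Tff3 UMIs. The FMTg cells with at least 10 Tff3 UMIs held a median of 25.5 Tff3 UMIs and up to 141, with a median of 1 Zg16 UMI. The 22 Tg cells held a median of 15 Tff3 UMIs together with 17.5 Zg16 UMIs, and 17 of them had at least 10 Zg16 UMIs, against 6 of the 80 FMTg cells. Muc2 and Agr2 had a median of 0 UMIs in these cells in both libraries, and Fcgbp, Clca1 and Spink4 a median of 1 in Tg and 0 in FMTg. In Tg, 1 cell held 220 of their 240 Muc2 and 666 of their 721 Fcgbp UMIs. The contrast between the libraries thus lies in Zg16, which was also higher in the Tg cells with fewer Tff3 UMIs, at a median of 4 against 1 in FMTg. These cells were picked by their Tff3 count, so their Tff3 level is a description.

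**Figure D4:**
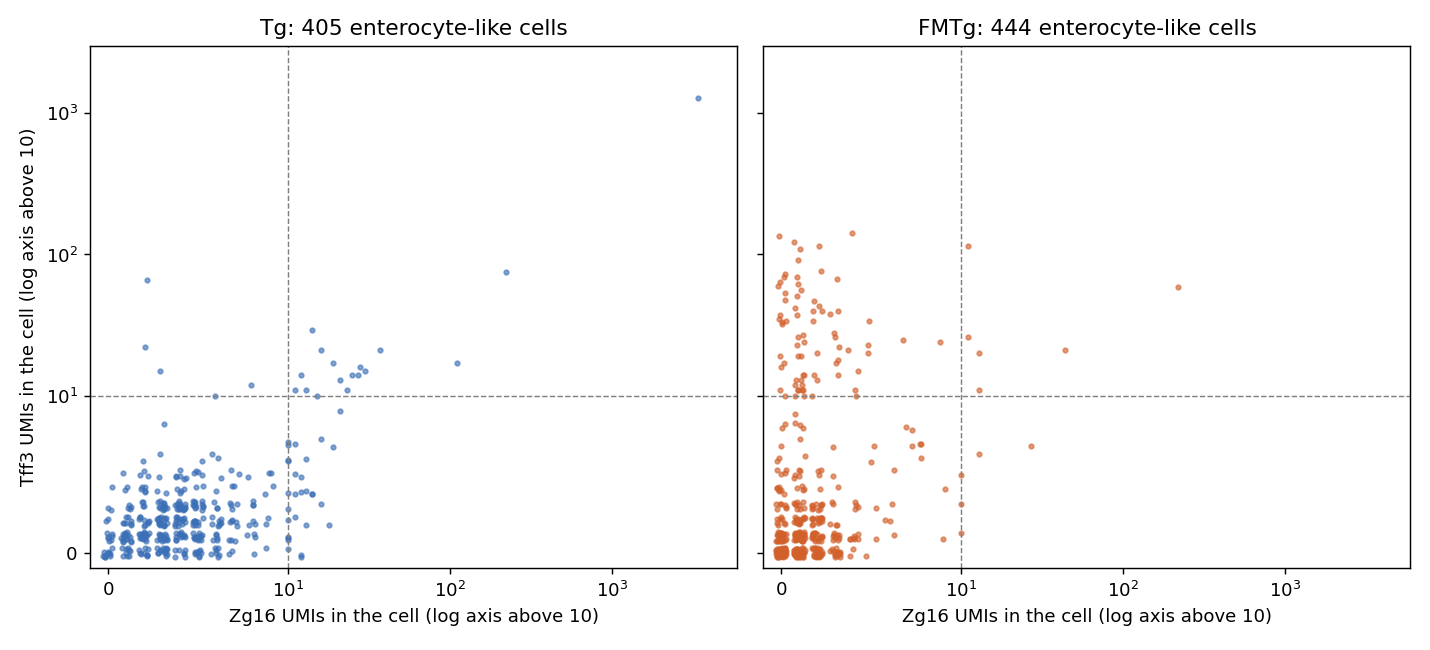
UMIs of Tff3 (vertical axis) against UMIs of Zg16 (horizontal axis) in each enterocyte-like cell, both axes logarithmic above 10, with small random shifts below 10 and dashed lines at 10 UMIs. In Tg the Tff3-rich cells mostly lie to the right, with 10 or more Zg16 UMIs, and in FMTg a column of cells reaches 141 Tff3 UMIs at few Zg16 UMIs.

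The ratio of both genes does not depend on a class total. Goblet-like cells held 0.285 Tff3 UMIs per Zg16 UMI in Tg and 0.348 in FMTg. In T or NK-like cells it was 0.435 and 0.607, and in B-like cells 0.481 and 0.472. Tg enterocyte-like cells lay in that range, at 0.438, and FMTg enterocyte-like cells far above it, at 3.43. The Tg value leans on 1 cell with 1289 of the 2506 Tff3 and 3429 of the 5716 Zg16 UMIs. Without that cell 1217 Tff3 and 2287 Zg16 UMIs were left, more Tff3 per Zg16 UMI than in either Tg lymphocyte class. The ratio of Muc2 to Zg16 UMIs stayed at 0.061 and 0.058 in enterocyte-like cells, close to the 0.064 and 0.075 of T or NK-like cells. Tuft-like cells also lay above the lymphocyte range, at 1.23 and 2.05 Tff3 UMIs per Zg16 UMI, and 87 of their 259 Tg Tff3 UMIs were in 1 cell. In each library the ratio was highest in enteroendocrine-like cells, at 8.43 and 125.

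The share of enterocyte-like cells with any Tff3 UMI shows less. It was 82.0% in Tg and 71.4% in FMTg, and after thinning to 2000 UMIs 18.7% of 401 Tg cells (15.0 to 22.9) and 29.7% of 438 FMTg cells (25.4 to 34.2). Thinned T or NK-like cells had 44.3% and 27.1%. Their median depths were 4924 and 4607 UMIs, against 30614 and 19958 in enterocyte-like cells, so thinning kept unlike parts of the cells. The thinned lymphocyte shares are thus no background for enterocyte-like cells, and this measure cannot show whether Tff3 was above it. By cluster, Tff3 had a log2 ratio of 1.42 (1.25 to 1.599) in cluster 3 and 0.69 (0.45 to 0.93) in cluster 4. It was at -0.91 (-1.28 to -0.56) in cluster 7 and -3.56 in cluster 14, which holds the Tg cell with the most member UMIs. In cluster 4, 1 Tg cell held 66 of the 156 Tg Tff3 UMIs, so the ratio there leans on it. Zg16 was lower in all 4 clusters, from -1.24 to -3.99. Cells with at least 10 Tff3 UMIs made up 17 of 117 FMTg cells in cluster 3 and 62 of 230 in cluster 4, but 1 of 71 in cluster 7 and 0 of 26 in cluster 14. In Tg the counts were 6 of 169, 4 of 26, 5 of 128 and 7 of 82. The Tff3-rich FMTg cells thus lay almost wholly in clusters 3 and 4.

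Enterocyte-like cells of FMTg also had more RNA of enteroendocrine markers, 120 CPM against 54.6 CPM, and of Chga, with 165 and 143 UMIs. The goblet naming markers went the other way, 37.0 CPM against 75.7 CPM. The part of these in the Tff3 level was not tested. Ern2, Spdef and Atoh1 had at most 6 UMIs each in either library of this class, too few for a comparison.

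Enteroendocrine-like cells, the hormone-making cells of the epithelium, had the next highest Tff3 after goblet-like cells. The 14 Tg cells stood at 2839 CPM (2551 to 3151) and the 16 FMTg cells at 7916 CPM (7562 to 8282), a log2 ratio of 1.48 (1.32 to 1.65). Per cell, Tg ran from 0 to 138 Tff3 UMIs with a median of 10, and FMTg from 0 to 406 with a median of 88.5. Depth differed too, with medians of 7661.5 and 13160 UMIs, yet the median per-cell levels were 1346 CPM and 8239 CPM. The groups overlapped, as 1 Tg cell reached 19114 CPM. Pooled Agr2 was also well above background here, at 1804 CPM in Tg and 1387 CPM in FMTg, with 1 Tg cell holding 81.3% of the Tg UMIs. In FMTg 5 of the 16 cells held all 329 Agr2 UMIs. The median cell held 1 Agr2 UMI in Tg and 0 in FMTg, so the pooled values rest on few cells. Zg16 was low, at 42 and 15 UMIs, so the Tff3 of these cells came with few UMIs of the goblet lectin. Chga stood at 3504 CPM and 6739 CPM, and the makeup of the class by hormone cell kind was not tested.

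In crypt stem or progenitor-like cells, 10 in Tg and 37 in FMTg, the members were rare. The 13 of 14 crypt markers detected in both libraries summed to 3588 CPM and 3244 CPM. The 10 Tg cells held 73 member UMIs, from 0 to 12 a cell, and the 37 FMTg cells 1203, a log2 ratio of CPM of 1.86 (1.52 to 2.22). Of these 1203 UMIs, 912 were in 1 FMTg cell. It held 311 of the 329 Agr2 UMIs, 254 of 287 Spink4, 249 of 421 Tff3, 70 of 81 Fcgbp, 15 of 16 Muc2 and all 8 Spdef and 3 Ern2 UMIs, but 1 Zg16 UMI and 0 Clca1 UMIs. The same cell had 11 UMIs of the proliferation gene Mki67 and 2 of the Notch ligand gene Dll1. Without the top cell of each library the log2 ratio of the sum was -0.05 (-0.45 to 0.38).

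Of the 5 members with at least 20 UMIs in these crypt cells, 4 were at least 1.5-fold higher and Zg16 was lower, at -1.98 (-2.62 to -1.33), where 15.3% of 7572 genes were higher and 12.9% lower. The 4 higher ones were Agr2, Spink4, Tff3 and Fcgbp. With the top cells left out Spink4 was at -0.26 and Fcgbp at -1.43, Agr2 had 0 Tg and 18 FMTg UMIs, and Tff3 stayed higher at 1.96 (0.997 to 3.11). That Tff3 value rests on 2 more FMTg cells, of 97 and 48 Tff3 UMIs. The first of them also held 150 UMIs of Chga, the chromogranin gene of enteroendocrine cells. Atoh1 had 0 UMIs in the 10 Tg cells and 5 in the 37 FMTg cells.

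**Figure D5:**
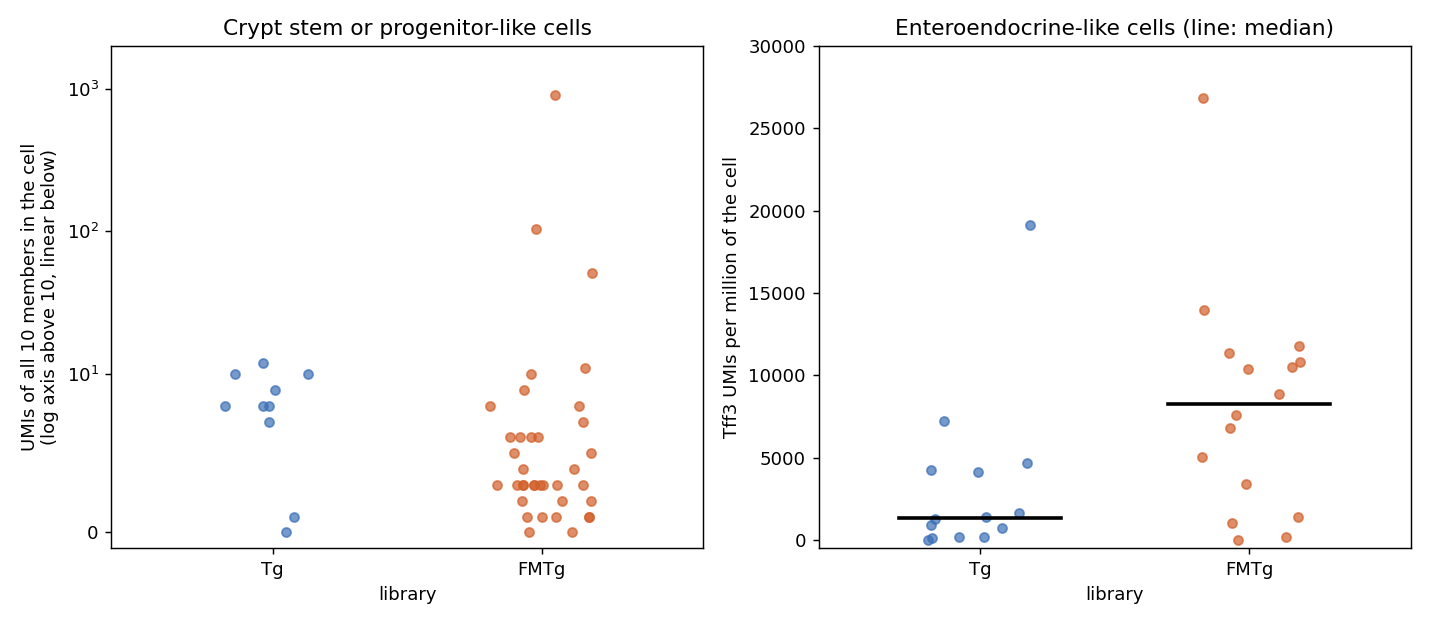
Left, UMIs of all 10 members in each crypt stem or progenitor-like cell (vertical axis, logarithmic above 10), 10 Tg and 37 FMTg cells. Right, Tff3 in CPM of each enteroendocrine-like cell, 14 Tg and 16 FMTg cells, with the median as a line. A single crypt cell of FMTg reaches 912 member UMIs, and the enteroendocrine medians are 1346 and 8239.

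Tuft-like cells, the chemosensory cells, numbered 51 in Tg and 62 in FMTg at median depths of 18158 and 18502 UMIs. Zg16 was at -2.17 there and Tff3 at -1.43. Spdef had 1 UMI in Tg and 9 in FMTg, each in a different cell, or 1.96% and 14.5% of the cells, against 0% and 0.0955% of T or NK-like cells, which were shallower. Thinned to 2000 UMIs the tuft-like shares were 2% and 1.61%, which is 1 cell in each library, so no difference is read. Spink4 had 24 and 60 UMIs, of which 48 of the FMTg UMIs were in 1 cell.

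Each of the 10 was highest in goblet-like cells in both libraries. Tff3, Agr2 and Fcgbp came next in enteroendocrine-like cells, Fcgbp at 393 CPM in Tg (291 to 520) and 236 CPM in FMTg (178 to 307). For Muc2, Clca1 and Zg16 no order below the goblet-like class is read, as the next levels were those of immune classes. In Tg these were the 53 neutrophil-like cells, with Zg16 at 1367 CPM (1167 to 1590), above the 965 CPM of B-like cells (917 to 1014). Across the 24 clusters, Fer1l6 had the pattern most like the mean of the members, with a Pearson correlation of log2(CPM + 1) of 0.92. It was followed by Mptx1, Pla2g10, Capn8, Capn9, Tpsg1, Retnlb, Galnt5, Ang4 and Frmd3, down to 0.85. Pla2g10, Capn9 and Tpsg1 were among the markers that named the class. Of the members themselves, Fcgbp was closest to their mean, at 0.97, and Spdef least, at 0.75. The clusters share 2 libraries and their free RNA, so these are descriptions.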

How the data were processed

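The authors deposited 1 table of unnormalized UMI counts (genes by cell barcodes) each for 1 Tg and 1 FMTg library, assigned by the sample labels. The submitters' processing notes name CASAVA 1.8.1, Cell Ranger 3.0 and mm10, and the annotation used for counting is not stated there. The members and lists were chosen with earlier results of these data known. Barcodes needed 500 UMIs, 300 genes and a mitochondrial share of no more than 25%. The highest scrublet scores (scanpy 1.11.5) were removed at 0.8% per 1000 barcodes, 154 Tg and 144 FMTg cells. Clusters were made with leidenalg 0.10.2 on 2000 variable genes, without the members, all listed genes, and mitochondrially encoded and ribosomal protein genes, and named from markers of 20 cell types. Clusters of under 3 detected markers, or led by markers of another type, stayed unnamed. So did shallow clusters with no marker of their best type among their leading genes. That last rule left out cluster 10, of 122 Tg and 15 FMTg cells, whose best type was enterocyte.

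UMIs were summed by class and library and scaled to the class total (CPM). Sums have exact Poisson, ratios exact conditional binomial and shares exact Clopper-Pearson intervals. Newcombe's method gave the interval for the difference between both shares. Genes count as measured from 20 UMIs over both libraries, and as different from 1.5-fold. Of each further list, 2 genes or fewer are named for their UMI total and 2 or fewer for the size of their ratio, from 50 UMIs. 9530053A07Rik, Mdm2, the Paneth genes and the genes given in single cells were named outside that rule. The calculations were tested on simulated data. Alternatives were the mitochondrial limit, UMI minimum, doublets, TMM of edgeR 4.0.16 and DESeq2 1.42.0 size factors as scalings, totals without members, equal weight per cell, clustering, a marker gate per cell and the gene minimum. Leaving out the cell with the most member UMIs was added after seeing the data. Python 3.11.15 and R 4.3.3 were used. The value of 1 gene of the Notch list is not reported here.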

Additional observations from a re-analysis of the deposited data

Results flagged for a closer look

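Muc2 and Fcgbp differed between cell classes under the same FMTg over Tg contrast, with intervals on opposite sides of 0, and the difference itself was not tested. Muc2 was at -2.14 on the log2 scale in enterocyte-like cells (-2.56 to -1.74) and at 0.21 in goblet-like cells (0.18 to 0.24). Fcgbp was at -2.72 in enterocyte-like cells (-3.02 to -2.43) and at 0.03 in goblet-like cells (0.01 to 0.05). In enterocyte-like cells 1 Tg cell held 220 of 347 Muc2 UMIs and 666 of 905 Fcgbp UMIs. Without the top cell of each library the values there were -0.70 and -0.82. They were -1.16 and -0.93 in T or NK-like cells, and -0.38 and 0.19 in B-like cells. In goblet-like cells without the top cells Muc2 was at 0.22 (0.19 to 0.25) and Fcgbp at 0.01 (-0.008 to 0.03). That Fcgbp interval holds 0, so its flag is lost in this setting.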

How the results depend on the processing

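No paired analysis was possible because each group has 1 library and the labels give no replicate numbers. All values here are log2 ratios, FMTg over Tg, unless another unit is given, and the cause of a difference between settings was not tested. For the summed members in goblet-like cells (-0.13), the marker gate gave -0.13, mitochondrial limits of 10%, 50% and none -0.18, -0.19 and -0.10, doublets kept -0.026, listed genes among the variable genes -0.13, TMM -0.11, DESeq2 size factors -0.088, totals without members -0.22, equal weight per cell -0.042 and leaving out the top cells -0.14. In crypt-like cells (1.86) the sign turned with the gate (-0.39), the limits of 10%, 50% and none (-0.96, -0.36 and -1.05) and without the top cells (-0.047), and equal weight gave 1.38. In enterocyte-like cells (-0.69) it turned with the gate (0.018), a minimum of 1000 UMIs (0.56), equal weight (0.14) and without the top cells (0.51). There the 3 limits gave -5.94, -0.19 and -0.40, doublets kept -2.16 and both scalings -0.79. Over all cells (-1.30) the 3 limits gave -0.75, -2.68 and -2.03, 1000 UMIs -1.29, doublets kept -1.41, TMM -1.36, DESeq2 -1.39, totals without members -1.31, equal weight -1.37 and leaving out the top cells -1.34. The goblet-like share differed by -2.48 percentage points, and by -1.13 at the 10% limit. The number of members at least 1.5-fold different over the goblet-like, crypt-like and enterocyte-like classes was 14, 8 at the 10% limit and 9 without the top cells.

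Members at least 1.5-fold different turned sign as follows. Fcgbp in crypt-like cells went to -1.89 with the gate, -3.15, -1.25 and -1.77 at the 3 limits and -1.43 without the top cells. Spink4 there went to -0.13 at 50%, -0.090 with no limit and -0.26 without the top cells, and Tff3 there to -1.32 at 10% and -1.10 with no limit. In enterocyte-like cells Agr2 went to 0.20 with the gate, and Tff3 to -4.71 at 10% and -0.19 with doublets kept. Over all cells each member kept its sign, and at the 10% limit Muc2 (-0.44) and Spink4 (-0.21) no longer reached 1.5-fold. In goblet-like cells at 50% Agr2 went to 0.0012 and Ern2 to 0.11. Among members under 1.5-fold there, the sign was kept in 12 of 13 alternatives for Spdef, 11 for Spink4 and Tff3 and 10 for Fcgbp, whose lowest or highest values across 0 were 0.035, -0.29, -0.074 and -0.072. TMM and DESeq2 moved the median of all genes by under 0.1. The counts and medians of the further lists were recomputed only at other UMI minimums, not under the other alternatives. Depth limits Ern2, Spdef and Atoh1, which had few UMIs outside goblet-like cells, and 10 Tg crypt-like cells and 42 FMTg goblet-like cells limit what can be read there.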
